A study of Mus musculus with 45 samples.

Results

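RNA from the hippocampus of Apoe(fl/fl) 5xFAD Csf1r-Cre mice was compared between 12 months of age (5 samples) and 4 months of age (4 samples). These 9 samples were chosen by their titles from a series of 45. All groups of the series, controls included, carried floxed Apoe alleles, so that Cre recombinase, made under the Csf1r promoter in microglia and other myeloid cells, deletes Apoe there, and Apoe stays intact in cells without Cre. The 5xFAD transgenes, which cause amyloid to build up, are under the Thy1 promoter, which is active in neurons. The age difference was set beside that in Apoe(fl/fl) Csf1r-Cre mice without 5xFAD (6 samples at 4 months and 7 at 12 months) and in Apoe(fl/fl) 5xFAD mice without Csf1r-Cre (5 samples at 4 months and 7 at 12 months). Neither sex nor the animal behind each sample is labelled. The p-values thus cover no more than how these samples vary. The labels name a NovaSeq and a HiSeq instrument without saying which sample ran on which, and anything that followed age in collection or sequencing cannot be told apart from age.

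Amyloid plaques accumulate with age in 5xFAD mice, and microglia gather around them. Plaque-associated microglia, also called disease-associated microglia, raise genes of lipid handling, lysosomal digestion, adhesion and antigen presentation through the receptor TREM2, while nearby astrocytes become reactive. APOE is a lipid carrier made mainly by astrocytes in the healthy brain and also by microglia near plaques. In whole tissue, more cells of a type and more RNA per cell cannot be told apart.

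The deposited values were TPM, transcript shares scaled to a fixed total that keep no read depth. The 9 libraries resembled each other, with a median correlation to the other libraries of the series between 0.957 and 0.973. The share of TPM on Gm23935, a short gene annotated as a miRNA, was 9.38% to 14.7% at 4 months and 3.10% to 9.49% at 12 months. RNA of Y-linked genes was present in replicates 1, 2 and 4 at 4 months and in replicates 3 and 5 at 12 months, and Xist was present in the others, so the mix of sexes was not the same at both ages. Markers of neighbouring tissue varied within each age: the summed TPM of 14 choroid plexus genes ran from 85.5 to 959 at 4 months and from 35.3 to 1378 at 12 months, and that of 14 striatal genes from 199 to 637 and from 185 to 1640. Replicate 2 at 12 months held the highest value of both sums. Markers of the hippocampus were present in all 9 libraries, with summed TPM of 12 dentate granule genes between 238 and 782 and of 12 CA pyramidal genes between 900.5 and 1425.

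Apoe, the floxed gene, was measured at 3068, 3000, 2825 and 2546 TPM at 4 months and at 3539, 4282, 3600, 3962 and 4621 TPM at 12 months. The ages did not overlap, and every 12-month library was higher. The mean was 2860 ± 233 TPM (SD, n = 4) at 4 months and 4001 ± 458 TPM (SD, n = 5) at 12 months, a difference of 0.48 on the log2 scale (exact two-sided permutation test, p = 0.0159, the smallest possible among 126 arrangements). In the fit across all genes the adjusted p was 0.323, and scaling the libraries by median-of-ratios size factors reduced the difference to 0.145 (exact permutation p = 0.206). In 5xFAD mice without Cre, whole-tissue Apoe was 2824 ± 647 TPM (SD, n = 5) at 4 months and 3979 ± 773 TPM (SD, n = 7) at 12 months, so the deletion in myeloid cells could not be checked from these totals. App, the mouse amyloid precursor gene, ranged from 205 to 507 TPM at 4 months and from 360 to 884 TPM at 12 months (adjusted p 0.389). For Thy1, whose promoter drives the transgenes, the adjusted p was 0.51.

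**Figure D1:**
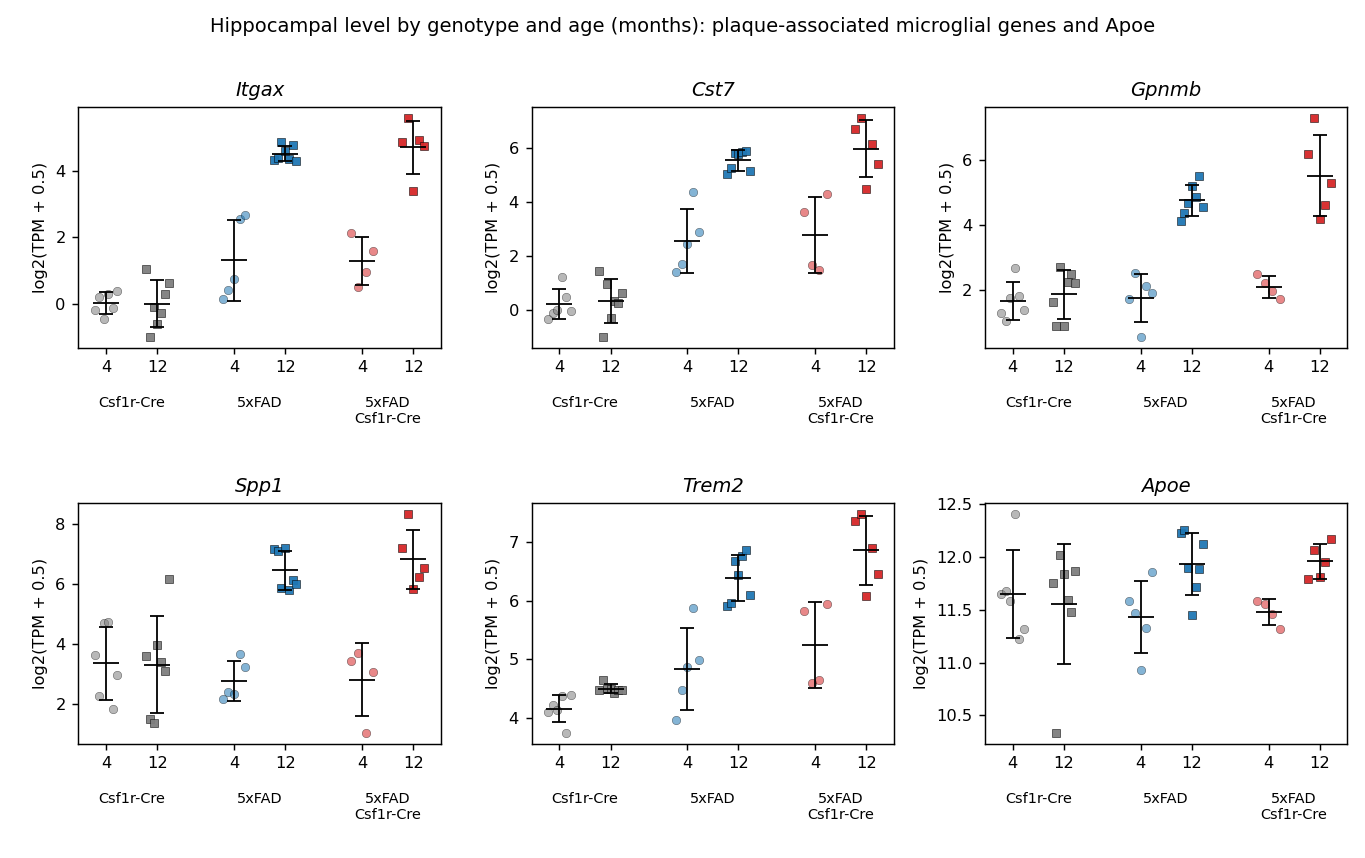
Levels of 5 plaque-associated microglial genes and Apoe as log2(TPM + 0.5) in each hippocampus library, by genotype and age in months; points are libraries, and bars show the mean and SD. Itgax rose from a mean of 2.17 to 29.0 TPM in 5xFAD Csf1r-Cre mice, against means of 0.532 and 0.605 TPM in Csf1r-Cre mice without 5xFAD.

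Of 18659 genes tested, 608 were higher at 12 months (3.26%) and 14 were lower (0.075%) at an adjusted p under 0.05. The change was lopsided for the whole transcriptome: the median log2 fold change of all genes tested was 0.27, and 76.3% of them had a positive value. Median-of-ratios scaling brought that median to 0.0176 and gave 370 higher and 23 lower genes, of which 335 were among the 622 called with TPM. A fit of the 9 libraries alone called 469 higher and 7 lower genes, 274 of them among the 622. Of the genes named below as higher, Cst7, Trem2, Tyrobp, Cd180, Irf8, Mx1, Lcn2, Osmr, Apod, Itgal, Atp6v0d2 and Galr3 were not called in it. Genes marked below as named after their values were seen were not examined singly in this fit. List medians with TPM stand beside 0.27. Groups that did not overlap were seen in 1591 genes with higher values at 12 months (8.53%) and 106 with lower values (0.568%), among them 472 of the 608 and 9 of the 14 called genes.

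Genes of plaque-associated microglia were among those with the largest rises. Of 34 tested members of that list, 26 rose and none fell, against 3.26% of all genes, with a median log2 fold change of 1.53. With median-of-ratios scaling 16 rose, without replicate 2 of the 12-month samples 17, and in the fit of the 9 libraries alone 13. The summed TPM of the list was 9342 to 12030 at 4 months and 15990 to 21850 at 12 months.

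Itgax, which encodes the integrin CD11c, was at 3.85, 0.905, 1.43 and 2.51 TPM at 4 months and at 28.9, 48.7, 10.2, 30.5 and 26.7 TPM at 12 months. The ages did not overlap, and replicate 3 was the lowest of the older libraries. The difference was 3.44 (SE 0.44, adjusted p 5.72e-06) on the log2(TPM + 0.5) scale used throughout, which understates changes of low genes. Spp1, the secreted phosphoprotein osteopontin, was at 10.4, 12.5, 1.59 and 8.01 TPM at 4 months and at 146, 320, 55.9, 74.6 and 90.9 TPM at 12 months. Its groups were also separate, and its difference of 3.99 (SE 0.73, adjusted p 0.000719) exceeded that of every other called gene above a mean of 1 TPM, predicted gene models left out.

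Gpnmb, a transmembrane glycoprotein of lipid-laden phagocytes, was at 5.20, 4.12, 3.47 and 2.81 TPM at 4 months and at 72.0, 156, 17.7, 24.0 and 38.6 TPM at 12 months. The 4-month libraries lay close together and the 12-month libraries were spread widely above them (log2 fold change 3.40, SE 0.47, adjusted p 1.84e-05). Cst7, which encodes the protease inhibitor cystatin F, was at 11.9, 2.67, 2.30 and 19.5 TPM at 4 months and at 106, 140, 21.8, 70.6 and 42.1 TPM at 12 months. The lowest older library, replicate 3, was just above the highest young library, replicate 4 (log2 fold change 3.21, SE 0.53, adjusted p 0.000244). Clec7a, the beta-glucan receptor dectin-1, rose by 3.00 (SE 0.51, adjusted p 0.00035). Cd84, a receptor of the SLAM family, rose by 2.13 (SE 0.33, adjusted p 8.98e-05).

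The myeloid receptor Trem2 was at 55.8, 23.7, 24.6 and 61.1 TPM at 4 months and at 162, 177, 67.4, 119 and 86.7 TPM at 12 months. Replicates 1 and 4 at 4 months already reached values close to that of replicate 3 at 12 months (log2 fold change 1.60, SE 0.28, adjusted p 0.000532). Its signalling adaptor Tyrobp rose by 1.39 (SE 0.24, adjusted p 0.000406). Both calls were lost with median-of-ratios scaling, where Trem2 had an adjusted p of 0.053 and Tyrobp one of 0.142. Among 21 mouse counterparts of microglial Alzheimer risk genes, 9 rose (3 in the fit of the 9 libraries alone), and Ms4a6c, a membrane protein of the MS4A family, went from between 0.118 and 0.33 TPM to between 0.911 and 4.38 TPM (log2 fold change 1.71, SE 0.29, adjusted p 0.000364).

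Receptors for antibody and microbial ligands were higher too: 16 of 18 rose (9 with median-of-ratios scaling and 5 in the fit of the 9 libraries alone), with a median of 1.39. Fcgr2b, the inhibitory Fc gamma receptor, was at 7.04, 4.27, 2.85 and 5.62 TPM at 4 months and at 33.4, 48.5, 12.4, 24.7 and 21.9 TPM at 12 months. The ages did not overlap (log2 fold change 2.32, SE 0.34, adjusted p 5.88e-05). Cd180, a Toll-like receptor homologue, rose by 2.04 (SE 0.37, adjusted p 0.000636). Fcgr3, an activating Fc gamma receptor, rose by 1.32 (SE 0.24, adjusted p 0.00085), with an adjusted p above 0.05 once median-of-ratios scaling was used.

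Of 18 homeostatic microglial genes, those typical of resting microglia, 9 rose and none fell, with a median of 1.06. The count was 4 with median-of-ratios scaling, 4 in the fit of the 9 libraries alone, 4 without replicate 2 and 3 without replicate 3 of the 4-month samples, and 5 without replicate 1 and 4 without replicate 2 of the 12-month samples. P2ry13, a purinergic receptor, was at 9.32, 7.42, 7.02 and 10.1 TPM at 4 months and at 26.4, 30.3, 14.4, 19.0 and 14 TPM at 12 months. The ages were separate (log2 fold change 1.20, SE 0.25, adjusted p 0.00278). Tmem119, a microglial surface protein, rose by 1.07 (SE 0.24, adjusted p 0.00613), and its call was lost without replicate 3 at 4 months (adjusted p 0.0517) and with median-of-ratios scaling (0.104).

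Lysosomal genes rose broadly, with 20 of 29 called and a median of 1.04. There were 10 calls without replicate 3 at 4 months and 11 without replicate 2 at 12 months. Ctss, the cysteine protease cathepsin S, was at 67.5, 80.1, 86.5 and 64.7 TPM at 4 months and at 302, 669, 151, 450 and 250 TPM at 12 months. The young libraries differed little, and every older library was above them (log2 fold change 2.11, SE 0.35, adjusted p 0.000244). Ctsh, cathepsin H, rose by 1.71 (SE 0.23, adjusted p 1.34e-05). Gusb, beta-glucuronidase, rose by 1.47 (SE 0.22, adjusted p 6.27e-05). Hpse, a heparan sulfate-degrading enzyme of lysosomes and matrix, went from between 0.173 and 1.14 TPM to between 2.48 and 19.4 TPM (log2 fold change 2.92, SE 0.36, adjusted p 4.18e-06).

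Complement genes had 6 of 11 members called higher and a median of 1.48. C1qa and C1qc, chains of the initiating component C1q, rose by 1.48 (SE 0.24, adjusted p 0.000152) and 1.49 (SE 0.25, adjusted p 0.000244). C4b, which encodes complement component 4, was at 93.3, 23.8, 23.1 and 47.7 TPM at 4 months and at 348, 569, 180, 406 and 211 TPM at 12 months. No library of one age reached the other (log2 fold change 2.97, SE 0.48, adjusted p 0.000207). C3, the central component, went from between 0.704 and 1.51 TPM to between 5.26 and 52.3 TPM (log2 fold change 3.29, SE 0.66, adjusted p 0.00228).

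Antigen presentation genes of both classes were higher at 12 months. Of 14 class I genes 10 rose, with a median of 1.23. The count was 6 with median-of-ratios scaling and in the fit of the 9 libraries alone, and 4 to 5 without replicate 2 or 3 at 4 months or replicate 2 or 4 at 12 months. B2m, the class I light chain, was at 326, 223, 202 and 316 TPM at 4 months and at 843, 1090, 523, 936 and 589 TPM at 12 months. The groups were separate (log2 fold change 1.55, SE 0.27, adjusted p 0.000406). H2-K1, a classical class I heavy chain, rose by 1.61 (SE 0.33, adjusted p 0.00273). Reads of the class I heavy chains may be shared among near-identical copies.

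Class II genes had 3 of 6 members called and a median of 2.45. H2-Aa, the alpha chain, was at 1.92, 2.06, 0.897 and 2.81 TPM at 4 months and at 14, 16.3, 17.6, 58.2 and 25.8 TPM at 12 months. Here replicate 4, not replicate 2, was the highest older library (log2 fold change 3.33, SE 0.72, adjusted p 0.00414). H2-Ab1, the beta chain, rose by 2.73 (SE 0.59, adjusted p 0.00461). Cd74, the invariant chain, went from between 1.99 and 7.14 TPM to between 11.7 and 124 TPM (log2 fold change 3.15, SE 0.76, adjusted p 0.0106). Its call was lost without replicate 3 at 4 months (adjusted p 0.0556) or replicate 4 at 12 months (0.0522).

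Of 28 interferon-response genes 12 rose and 28 had a positive value, with a median of 1.19. The number called varied with single libraries, at 4 without replicate 3 at 4 months, 5 without replicate 2 and 21 without replicate 3 at 12 months, 7 without replicate 2 or 4 at 4 months or replicate 1 at 12 months, 6 without replicate 4 at 12 months, 6 with median-of-ratios scaling, and 2 in the fit of the 9 libraries alone. Ifi204, a nucleic acid sensor, went from between 0.0371 and 0.519 TPM to between 0.643 and 2.84 TPM (log2 fold change 1.72, SE 0.25, adjusted p 5.88e-05). Irf8, a transcription factor of the myeloid lineage, rose by 1.59 (SE 0.33, adjusted p 0.00292). Mx1, an antiviral GTPase, had values of at most 0.168 TPM at 4 months and between 0.16 and 1.34 TPM at 12 months (log2 fold change 0.99, SE 0.19, adjusted p 0.00161), and its groups overlapped. Of 21 chemokine and cytokine genes 5 rose, or 1 to 3 without replicate 2 or 3 at 4 months or replicate 1 or 2 at 12 months, 9 without replicate 3 at 12 months, 2 with median-of-ratios scaling and 1 in the fit of the 9 libraries alone.

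The promoters of Spp1, B2m and Ctss are shown because these genes rose and their start regions hold letters of motifs bound by PU.1, a myeloid transcription factor, or of interferon-stimulated response elements. Each runs from 250 bases before to 50 bases after the start (RefSeq, GRCm38.p6). Capitals mark matches on either strand to GAGGAAGT, for PU.1, or to GAAA followed after any 2 bases by GAAA, for the interferon element. Spp1 lies at chr5:104434861-104435160 on the plus strand, with the PU.1-type match at -113 and the interferon-type match at -157, counted from the start to the first base of the match. B2m lies at chr2:122147437-122147736 on the plus strand, with an interferon-type match at -139. Ctss lies at chr3:95526536-95526835 on the plus strand, with a PU.1-type match at -2 and an interferon-type match at -21.
Spp1: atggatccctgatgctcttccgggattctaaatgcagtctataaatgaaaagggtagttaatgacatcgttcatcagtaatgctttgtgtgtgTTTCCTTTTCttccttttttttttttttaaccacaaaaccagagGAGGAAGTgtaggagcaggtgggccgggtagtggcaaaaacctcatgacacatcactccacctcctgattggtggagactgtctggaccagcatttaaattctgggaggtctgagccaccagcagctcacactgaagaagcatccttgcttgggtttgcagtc
B2m: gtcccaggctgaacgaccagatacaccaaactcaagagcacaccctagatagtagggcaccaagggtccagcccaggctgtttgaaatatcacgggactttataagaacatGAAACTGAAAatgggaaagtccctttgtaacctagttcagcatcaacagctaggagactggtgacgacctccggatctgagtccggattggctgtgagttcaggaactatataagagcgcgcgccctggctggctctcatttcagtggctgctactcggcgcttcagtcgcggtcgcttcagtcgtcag
Ctss: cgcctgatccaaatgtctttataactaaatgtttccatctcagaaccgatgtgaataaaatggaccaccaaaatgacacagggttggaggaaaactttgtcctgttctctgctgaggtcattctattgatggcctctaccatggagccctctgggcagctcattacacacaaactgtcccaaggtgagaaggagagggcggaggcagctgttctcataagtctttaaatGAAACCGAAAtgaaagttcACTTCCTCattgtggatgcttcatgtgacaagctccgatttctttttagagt
GAGGAAGT was present in 3.2% of all 32851 promoters, and the interferon-type motif in 3.44%. Among the 464 genes called higher that had a promoter in the table, 46 held the first (9.91%, against 3.39% of the 12674 tested genes with a promoter) and 35 the second (7.54%, against 3.66%). The motifs can share an end base when they lie on opposite strands. A match describes letters and is not evidence of binding, and these shares carry no test.

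Reactive astrocyte genes were also higher, with 12 of 19 called and a median of 1.66, and the count was 11 with median-of-ratios scaling and 6 in the fit of the 9 libraries alone. C4b, given above with the complement genes, also counts in this list and in the myelin list below. Serpina3n, a serine protease inhibitor, was at 38.2, 22.6, 14.7 and 23.7 TPM at 4 months and at 183, 704, 76.8, 150 and 108 TPM at 12 months. The groups were separate, and replicate 2 at 12 months stood far above the rest (log2 fold change 2.87, SE 0.51, adjusted p 0.000595). Lcn2, the iron-binding secreted protein lipocalin 2, was at 0.221, 0.396, 0.0792 and 3.33 TPM at 4 months and at 18.1, 133, 2.21, 7.40 and 2.98 TPM at 12 months. Its ages overlapped, and replicate 2 was again the highest (log2 fold change 3.37, SE 0.68, adjusted p 0.00211). Osmr, the oncostatin M receptor, rose by 2.14 (SE 0.36, adjusted p 0.000352). Of 12 general astrocyte markers, 0 were called, at a median of 0.55.

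Myelin and mature oligodendrocyte genes formed another block, with 11 of 19 members called higher and a median of 1.29. The summed TPM of the list was 3449 to 3922 at 4 months and 7655 to 11700 at 12 months, without overlap. Mbp, the myelin basic protein, was at 1661, 1621, 1513 and 1783 TPM at 4 months and at 3000, 5129, 5293, 4249 and 3766 TPM at 12 months. Replicate 3 at 12 months, the lowest library for most microglial genes, was the highest for Mbp (log2 fold change 1.35, SE 0.35, adjusted p 0.0182). Mbp was named after its values were seen.

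Il33, a cytokine of oligodendrocytes and astrocytes, was at 33.7, 50.7, 44.5 and 54.7 TPM at 4 months and at 154, 228, 175, 180 and 125 TPM at 12 months. The groups did not overlap (log2 fold change 1.89, SE 0.37, adjusted p 0.00174). Hapln2, a matrix link protein of nodes of Ranvier, went from between 9.36 and 14.8 TPM to between 30.4 and 37.8 TPM (log2 fold change 1.47, SE 0.31, adjusted p 0.00318). The number of myelin genes called was 7 without replicate 1 or 2 and 6 without replicate 3 of the 4-month samples, and 6 without replicate 2 of the 12-month samples. Of 14 genes of oligodendrocyte precursors and committed cells, 1 rose, the choline phosphodiesterase Enpp6 (log2 fold change 1.40, SE 0.38, adjusted p 0.0274). Its adjusted p was between 0.0543 and 0.125 without replicate 1, 2 or 3 at 4 months or replicate 2 or 4 at 12 months, 0.0749 with median-of-ratios scaling and 0.0504 without Gm23935 and mitochondrial transcripts.

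Lipid transport genes other than Apoe gave 4 calls among 23 tested, with a median of 0.78. Apod, a lipocalin that binds arachidonic acid and sterols, was at 270, 317, 250 and 314 TPM at 4 months and at 760, 3381, 832, 850 and 699 TPM at 12 months. Replicate 2 at 12 months was far above the others, and without it the adjusted p was 0.0875 (log2 fold change 1.87, SE 0.45 and adjusted p 0.0114 with it). That library's absence left 2 calls in the list, as did the fit of the 9 libraries alone. Npc2, the lysosomal cholesterol transfer protein, rose by 0.85 (SE 0.17, adjusted p 0.00273), a call lost with median-of-ratios scaling (0.287). None of 21 cholesterol synthesis genes was called, at a median of 0.18.

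**Figure D2:**
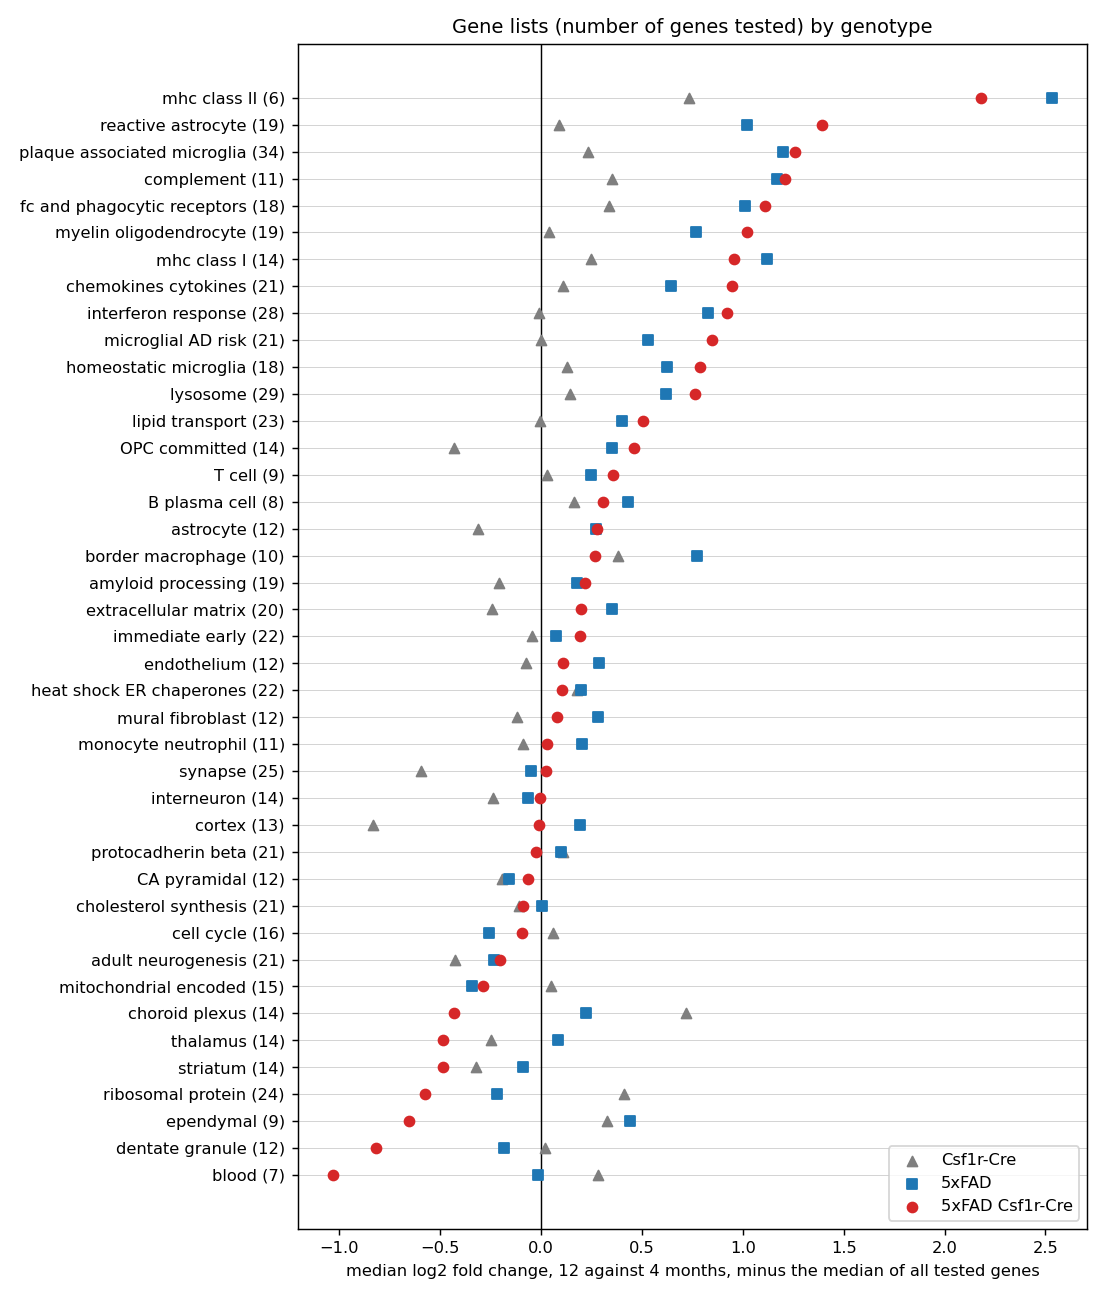
Median log2 fold change of each gene list other than the sex-linked one, which is not drawn, between 12 and 4 months, after subtracting the median of all tested genes, in 3 genotypes (markers); the number of genes tested is beside each name. Immune, reactive astrocyte and myelin lists lie to the right in both 5xFAD genotypes, and the dentate granule (-0.821) and blood (-1.03) lists lie furthest to the left among those drawn in 5xFAD Csf1r-Cre mice.

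The 14 genes that fell had smaller changes. Synpr, the synaptic vesicle protein synaptoporin, was at 242, 368, 238 and 262 TPM at 4 months and at 84.0, 106, 200, 93.4 and 161 TPM at 12 months. The groups did not overlap (log2 fold change -1.16, SE 0.32, adjusted p 0.0289). In 4-month Csf1r-Cre mice without 5xFAD, Synpr was at 108.9 to 259.4 TPM. It was at 92.97 to 278 TPM in 4-month 5xFAD mice without Cre and at 142 to 253.7 TPM in 4-month controls. Marcksl1, an actin-binding protein of growing neurons, was at 178, 177, 142 and 98.5 TPM at 4 months and at 64.3, 64.6, 80.7, 71.0 and 104 TPM at 12 months. Replicate 5 at 12 months overlapped with replicate 4 at 4 months (log2 fold change -0.93, SE 0.22, adjusted p 0.00728). Bex2, a small protein of the BEX family, was at 437, 457, 401 and 420 TPM at 4 months and at 317, 267, 324, 285 and 340 TPM at 12 months, again without overlap (log2 fold change -0.49, SE 0.11, adjusted p 0.00812). In 4-month Csf1r-Cre mice without 5xFAD, Bex2 was at 300.5 to 362.8 TPM. It was at 364.3 to 440.8 TPM in 4-month 5xFAD mice without Cre and at 271.6 to 436.8 TPM in 4-month controls. The part of a high young group in the falls of Synpr and Bex2 was not tested.

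Further falls were measured for Elk1, a transcription factor of the ETS family, at -0.87 (SE 0.26, adjusted p 0.048), and for Tpd52l1, a tumour protein D52-like gene, at -0.85 (SE 0.23, adjusted p 0.0275). Elk1 was at 72.91 to 115.1 TPM at 4 months and at 38.42 to 68.43 TPM at 12 months. No 4-month library without 5xFAD exceeded 64.42 TPM of Elk1, and 4-month 5xFAD libraries without Cre ranged from 30.31 to 96.58 TPM. The young group was thus high for Elk1, and the part of this in its fall was not tested. Prr7, a synaptic membrane protein, fell by 0.80 (SE 0.23, adjusted p 0.0389), and Alkbh7, a mitochondrial dioxygenase, by 0.69 (SE 0.19, adjusted p 0.029). Prr7 went from between 75.88 and 103.7 TPM to between 38.66 and 61.79 TPM. In 4-month Csf1r-Cre mice without 5xFAD it was at 43.97 to 81.65 TPM, and in 4-month 5xFAD mice without Cre at 48.57 to 82.55 TPM. The 4-month controls were at 41.58 to 97.69 TPM of Prr7. The remaining ones named by the rule, Hspb11, Enho, Tmem35a, Ydjc and Caly, had log2 fold changes between -0.68 and -0.46. Enho encodes the peptide adropin, Tmem35a a chaperone of nicotinic receptors and Caly a vesicle protein of neurons. Bex2 alone among these 12 kept its call with every library left out in turn. Marcksl1 lost it without replicate 2 at 4 months (adjusted p 0.0521), and Tmem35a without that library (0.0521) or replicate 2 at 12 months (0.0593). The calls of the other 9 were lost in 5 to 7 of the 9 omissions, and Synpr had adjusted p-values of 0.0575 to 0.136 there. With median-of-ratios scaling 4 of the 12 kept their call (Synpr, Marcksl1, Tpd52l1 and Bex2), and in a fit of the 9 libraries alone 2 did (Prr7 and Bex2). The 14 genes were short, with a median annotated length of 1994.5 bases against 3550 for all tested genes and 3702 for those that rose.

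**Figure D3:**
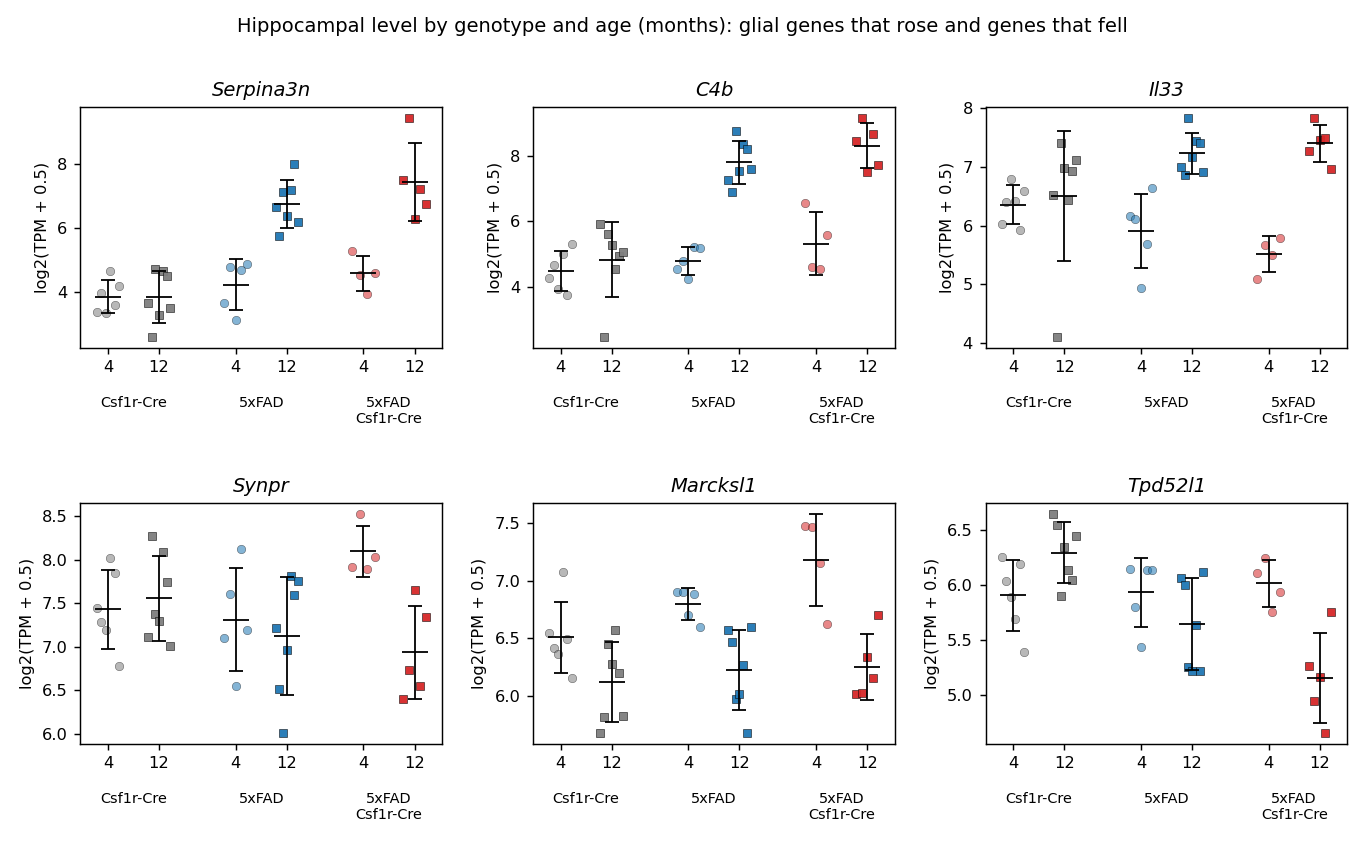
Levels as log2(TPM + 0.5) of 3 glial genes that rose and 3 genes that fell in 5xFAD Csf1r-Cre mice, by genotype and age in months; points are libraries, and bars show the mean and SD. Synpr fell from a mean of 277 to 129 TPM in 5xFAD Csf1r-Cre mice, while its means in 5xFAD mice without Cre were 169 and 152 TPM.

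Markers of dentate granule neurons, the cells that also express synaptoporin, had a median of -0.55, with 11 of 12 below 0 and 0 called. Their lowest p belonged to Tdo2, a tryptophan-degrading enzyme, at 8.59, 16, 7.44 and 6.19 TPM at 4 months and 2.58, 0.721, 3.99, 2.19 and 4.69 TPM at 12 months. Its groups did not overlap (log2 fold change -1.66, SE 0.57, adjusted p 0.103). The summed TPM of the list was 420 to 782 at 4 months and 238 to 611 at 12 months. Adult neurogenesis genes gave 0 calls among 21, at a median of 0.0688, and Hes5, a Notch target of neural stem cells, differed by -1.04 on the log2 scale (SE 0.39, adjusted p 0.145). Of 25 synaptic genes 0 were called, at a median of 0.298 that became -0.0275 with median-of-ratios scaling. Ribosomal protein genes had a median of -0.30, with 22 of 24 below 0 and 0 called.

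Of markers of blood-borne and border cells, single members were called, and none of these markers was at 0 in all 9 libraries. Of 9 T cell genes, Ccl5 and Itgal rose, and Ccl5 also counts among the chemokine and cytokine genes above. Ccl5, a chemokine of T cells and microglia, was at 0.341, 0.366, 0.244 and 0.218 TPM at 4 months and at 4.41, 3.65, 3.53, 2.56 and 3.73 TPM at 12 months. Its groups were far apart relative to their spread (log2 fold change 2.35, SE 0.42, adjusted p 0.000662). In 4-month Csf1r-Cre mice without 5xFAD, Ccl5 ranged from 0 to 4.627 TPM, the latter above every 12-month value given here. In 4-month 5xFAD mice without Cre it was at 0.669 to 1.451 TPM, above the young group here. The part of a low young group in this rise was not tested. Itgal, an integrin of lymphocytes and other leukocytes, rose by 0.89 (SE 0.21, adjusted p 0.0101), and its adjusted p was 0.0501 without replicate 2 at 4 months and 0.0634 and 0.0559 without replicates 2 and 4 at 12 months.

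Ighm, the immunoglobulin M heavy chain, was the member called among 8 B and plasma cell genes, going from between 11.3 and 16.5 TPM to between 34.4 and 52.2 TPM (log2 fold change 1.55, SE 0.35, adjusted p 0.00572), a call lost with median-of-ratios scaling (0.0782). The summed TPM of that list was 15.8 to 22.6 at 4 months and 40.0 to 252 at 12 months, with the highest in replicate 3. Of 10 border macrophage genes the MS4A family member Ms4a7 rose (1.55, SE 0.32, adjusted p 0.0029), while the list's sum overlapped, at 9.94 to 19.0 and 15.5 to 33.7 TPM. Of 11 monocyte and neutrophil genes Ly6c2, a monocyte surface protein, rose (1.23, SE 0.31, adjusted p 0.0149), with sums of 8.90 to 18.5 and 12.1 to 62.1 TPM. Its call was lost without replicate 2 or 3 at 4 months (adjusted p 0.0652 and 0.0654) or replicate 2 at 12 months (0.0866), and with median-of-ratios scaling (0.0543). Blood genes were lower in all 7 cases without a call, at a median of -0.76 and sums of 745 to 1847 TPM at 4 months and 486 to 881 TPM at 12 months. The part of these cells in the rises above was not tested.

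The older libraries did not rise evenly. Among the 608 genes called higher, replicate 2 held the highest of the 5 values at 12 months for 386 (63.5%), and replicate 3 the lowest for 350 (57.6%). Replicates 1 and 4, with Xist like replicate 2, were highest for 92 and 72. Replicates 3 and 5, with Y-linked RNA, were highest for 48 and 10. Replicate 5 was lowest for 152, and replicates 1, 2 and 4 were lowest for 59, 10 and 37. At 4 months replicates 1 and 4, with Y-linked RNA, held the highest value for 227 and 223 of them. Replicate 2, also with Y-linked RNA, was highest for 83, and replicate 3, with Xist, for 75. Without replicate 2 at 12 months the number of genes called in either direction was 271, against 622 with all libraries. It was 317 without replicate 2 and 311 without replicate 3 at 4 months. With the level of Y-linked RNA as a covariate 506 genes were called. That covariate is a single slope over all 45 libraries, so it cannot take up a sex difference limited to some groups. The part of sex in the uneven rise was not tested.

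The same age difference in Csf1r-Cre mice without 5xFAD gave 0 called genes by limma, with 1520 at an unadjusted p under 0.05 and 0 called with median-of-ratios scaling. The median of the plaque-associated list there was 0.144. This comparison contains a library that stood apart from the rest of the series, replicate 2 of the 12-month Csf1r-Cre samples, with a median correlation of 0.886 and 10590 genes at 1 TPM or more. Without it and a control library that also stood apart, limma called 0 genes (1340 had an unadjusted p under 0.05) and the list's median was 0.343, beside 0.0619 for all genes (-0.0888 with them). Whether the age difference depended on 5xFAD was tested as the difference of the 2 age effects, which share no library. That test called 83 genes (0.445%), 79 with a more positive effect with 5xFAD (0.423%) and 4 with a more negative one (0.0214%). The median over all genes was 0.378, with 73.3% of them above 0, and it was 0.221, with 53 genes called, without replicate 2 of the 12-month Csf1r-Cre samples. With the 4 compared groups fitted alone, limma called 0 genes for this difference, with 2864 at an unadjusted p under 0.05.

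Itgax, at 0.532 ± 0.223 TPM (SD, n = 6) at 4 months and 0.605 ± 0.548 TPM (SD, n = 7) at 12 months without 5xFAD, had a difference of 3.46 (95% interval 2.30 to 4.62, adjusted p 0.00147). Hpse had the smallest p, with a difference of 3.11 (2.16 to 4.06, adjusted p 0.000617). Atp6v0d2, a subunit of the lysosomal proton pump, was at 0, 0, 0.0503 and 0.135 TPM at 4 months and at 4.48, 3.85, 0.534, 1.00 and 1.30 TPM at 12 months in 5xFAD Csf1r-Cre mice. Its difference was 2.05 (1.41 to 2.68, adjusted p 0.000617). Plau, the urokinase plasminogen activator, had a difference of 2.71 (1.86 to 3.56, adjusted p 0.000617), and Ctse, the aspartic protease cathepsin E, one of 1.91 (1.28 to 2.55, adjusted p 0.00147).

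Each of these 5 genes kept its call when any library of the 4 groups was left out, although the number of genes called ranged from 8, without replicate 2 of the 12-month 5xFAD Csf1r-Cre samples, to 416, without replicate 3 of that group. A fit of the 4 groups alone called 0 genes and had 2864 at an unadjusted p under 0.05. Among genes that fell, Tpd52l1 had a difference of -1.24 (-1.85 to -0.63, adjusted p 0.046) and Tmem35a one of -0.80 (-1.15 to -0.44, adjusted p 0.0262), calls kept in 11 and 24 of 33 alternatives. Trem2, at 1.26 (0.52 to 2.00, adjusted p 0.101), and H2-Aa, at 2.45 (0.58 to 4.33, adjusted p 0.17), did not pass.

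**Figure D4:**
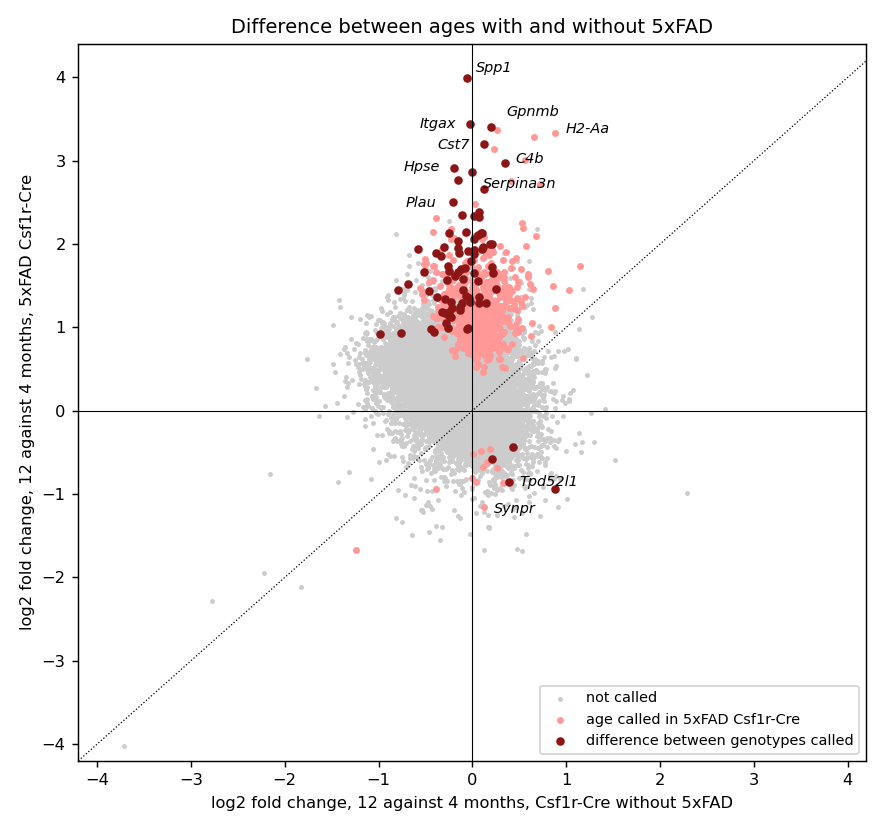
Log2 fold change between 12 and 4 months for each of 18659 genes in Csf1r-Cre mice without 5xFAD (x axis) and in 5xFAD Csf1r-Cre mice (y axis). Pink points are genes called for age in 5xFAD Csf1r-Cre mice, dark red points are the 83 genes whose age effects differed between genotypes, and the dotted line marks equal effects; the x axis includes the 12-month library that stood apart.

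In 5xFAD mice without Csf1r-Cre, 501 genes were higher at 12 months (2.69%) and 4 lower (0.0214%). Of the 608 genes that rose with Csf1r-Cre, 361 were also called there (59.4% of the 608 and 72.1% of the 501), and 606 had a positive value, as did 81.5% of all tested genes. None of the 14 genes that fell was among the 4. The test of whether the age effect differed with Csf1r-Cre called 0 genes by limma, with 238 at an unadjusted p under 0.05, and 2 genes when no filter on low values was applied. The strain entry of the 12-month 5xFAD samples names Csf1r-Cre while their titles do not; the titles were followed, and a mistake there would change what this comparison means.

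The intervals of that difference were wide for many genes. For Itgax it was 0.22 (95% interval -0.97 to 1.40), for Spp1 0.32 (-1.63 to 2.27), for Trem2 0.05 (-0.70 to 0.81) and for C4b -0.03 (-1.31 to 1.26). For Apoe it was -0.02 (-0.66 to 0.62). These intervals include changes of more than 1 on the log2 scale in either direction for Spp1 and C4b, so equal effects are not shown. Ccl5 had one of the smallest p-values, with an age effect of 2.35 against 0.23 and a difference of 2.12 (0.98 to 3.26, unadjusted p 0.000531, adjusted p 1). Among 4-month 5xFAD libraries, Ccl5 was at most 0.366 TPM with Csf1r-Cre and at least 0.669 TPM without it. Synpr had age effects of -1.16 and -0.19 and a difference of -0.97 (-1.82 to -0.12, adjusted p 1).

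**Figure D5:**
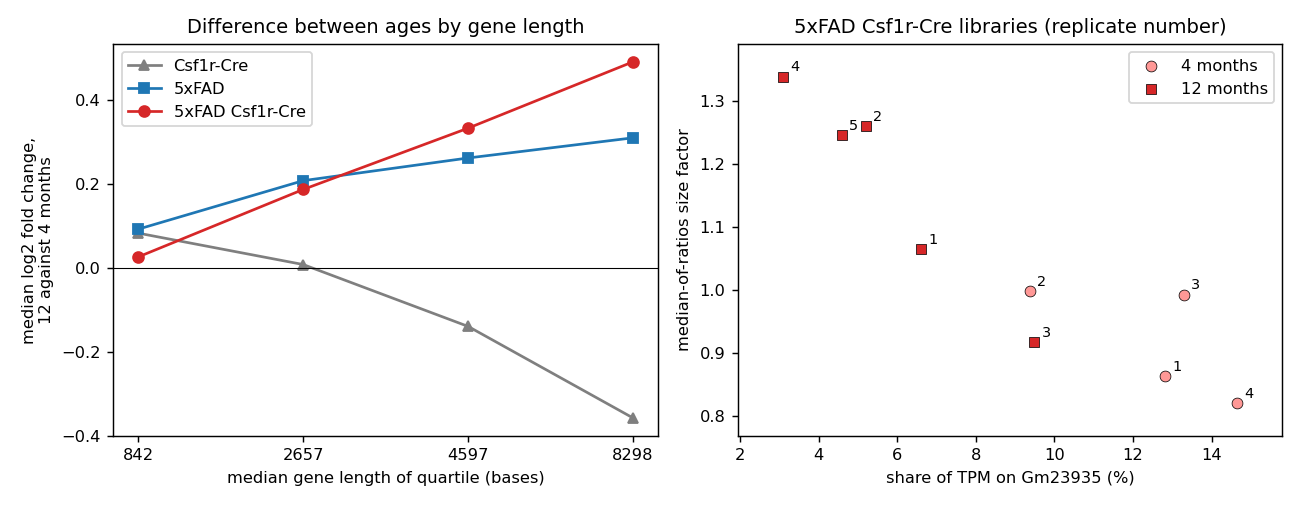
Left, median log2 fold change between 12 and 4 months in 4 equal groups of genes by annotated length, in 3 genotypes (lines). Right, the share of TPM on Gm23935 against the median-of-ratios size factor in the 9 libraries of 5xFAD Csf1r-Cre mice, numbered by replicate; the 12-month libraries mostly hold less Gm23935 and have larger size factors.

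The transcriptome-wide shift varied with gene length. In 5xFAD Csf1r-Cre mice the median log2 fold change was 0.0254 in the shortest of 4 equal groups of genes, 0.186 and 0.332 in the middle ones and 0.49 in the longest. In Csf1r-Cre mice without 5xFAD it ran from 0.0821 to -0.358, but without the libraries that stood apart, an alternative chosen after seeing the data, the 4 medians were 0.0905, 0.121, 0.0688 and -0.0601. In 5xFAD mice without Cre it ran from 0.0915 to 0.309. The called genes were not concentrated in the longest group, which held 120 of the 608 that rose, against 206 in each of the middle groups and 76 in the shortest. With TPM recomputed without Gm23935 and mitochondrial transcripts, the medians in 5xFAD Csf1r-Cre mice still rose with length, from -0.017 to 0.38. The median of all genes was then 0.182, and 427 genes were called higher and 28 lower. The part of gene length in these differences was not tested.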

How the data were processed

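Hippocampus RNA-seq values were deposited as TPM per gene; the submitters' processing notes name STAR, featureCounts, edgeR, limma and mm10, without versions or order. Groups came from the sample titles. The members and gene lists were chosen with earlier results of these data known. From the deposited TPM, log2(TPM + 0.5) entered a linear model (limma 3.58.1, R 4.3.3, with a trend in the empirical Bayes step) over all 45 libraries and 8 group means, for 18659 of 54532 genes with at least 0.5 TPM in at least 3 libraries. P-values were two-sided and adjusted by Benjamini-Hochberg over all genes tested, with a threshold of 0.05. Apoe was tested by an exact permutation test (scipy 1.17.1). TPM keep no read depth, and depth is not given in the sources used here, so no counting error could be set.

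Genes named were Apoe, App, Thy1, the 12 highest and 12 lowest called log2 fold changes with a mean of at least 1 TPM (predicted genes and sex-linked genes left out), the 3 smallest p-values in each list and 5 genes for each other comparison. The rule took 148 genes, of which 64 are given; some items the rule takes are not reported here, and genes outside it are named as chosen after their values were seen. Alternatives were median-of-ratios scaling, TPM without Gm23935 and mitochondrial transcripts, other pseudocounts (0.1 and 1) and filters, only the compared groups, array weights, a Y-linked covariate, a replicate block and leaving out libraries. The scripts were tested on simulated data. No libraries were identical.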

Additional observations from a re-analysis of the deposited data

Results flagged for a closer look

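In the group of 12-month 5xFAD Csf1r-Cre libraries, the Apod value of replicate 2 (3381 TPM) stood apart from the other 4, with a gap of 0.876 of the group's whole range. This group was the only one marked of 128 groups of 4 or 5 libraries examined, where chance marks about 1 in 20.

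For 23 of the genes given here from the naming rule the age effect differed between Csf1r-Cre mice with and without 5xFAD at an adjusted p under 0.05 (limma). The largest differences on the log2 scale were those of Spp1 (4.05), Itgax (3.46), Gpnmb (3.20), Hpse (3.11) and Cst7 (3.08). Spp1 reached 70.5 TPM in replicate 7 of the 12-month Csf1r-Cre samples without 5xFAD, above the lowest 12-month value with 5xFAD (55.9 TPM). The other libraries of that Csf1r-Cre group were at 2.13 to 15.3 TPM. The Spp1 call was kept in 17 of 33 alternatives. The complement and astrocyte genes C4b, Serpina3n and Osmr differed by 2.63, 2.87 and 2.21. Among immune receptors and signals, Cd84 differed by 2.04, Fcgr2b by 2.26, Cd180 by 2.20, Ccl5 by 2.46, B2m by 1.49, Ifi204 by 1.51 and Mx1 by 1.04. The proteases and lysosomal genes Plau, Atp6v0d2, Ctse, Ctss and Gusb differed by 2.71, 2.05, 1.91, 2.05 and 1.22, and the galanin receptor Galr3 by 1.35. Negative differences were those of Tpd52l1 (-1.24) and Tmem35a (-0.796). All 23 kept their direction in every alternative that could be fitted for them. The call was kept in 32 of 33 alternatives for Hpse, Atp6v0d2 and Plau, in 31 for Ctse, in 30 for Itgax and Gpnmb, in 16 to 26 for 14 others, in 11 for Tpd52l1 and in 10 of 32 for Mx1 and Galr3.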

How the results depend on the processing

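For age in 5xFAD Csf1r-Cre mice, 622 genes were called, against 393 with median-of-ratios scaling, 1389 without the 2 libraries of other groups that stood apart, 2855 with array weights and 303 with replicate number as a block, and 271 to 851 with a library left out. For the difference with 5xFAD, 83 were called, against 55 with median-of-ratios scaling, 3 and 152 with pseudocounts of 0.1 and 1, 46 without a filter, 0 with the compared groups alone, 606 with array weights and 11 with the replicate block. Leaving out a library gave 8 to 416; the counts over 1.5 times away came without replicates 1 (10), 2 (8), 3 (416) and 4 (24) at 12 months or 2 (11), 3 (20) and 4 (36) at 4 months of 5xFAD Csf1r-Cre, and without replicates 2 (45), 4 (25) and 6 (42) at 4 months or 2 (53), 3 (259) and 5 (43) at 12 months of Csf1r-Cre. For the difference with Csf1r-Cre, 0 were called and 2 without a filter. The Apoe difference was 0.145 (exact permutation p 0.206) with median-of-ratios scaling and 0.427 (0.125, the smallest possible) over replicate pairs, and 0.426 to 0.523 with a library left out (p 0.0286 to 0.0357). The cause of these changes was not tested. Replicate numbers did not pair the samples, with correlations of 0.0731, -0.0906, -0.517 and -0.327 between same-numbered libraries and 0 of 4 libraries closest to their own number, and the block's counts are given for completeness. Of 63 genes given from the naming rule besides Apoe, 59 were called, none changed direction in any alternative, and 29 kept their call in all. Low genes such as Mx1, Ly6c2 and Itgal rest on values near or under 1 TPM.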

Other observations

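Further genes were chosen after their values were seen. Gfap, the intermediate filament of reactive astrocytes, was at 584, 264, 273 and 502 TPM at 4 months and at 1833, 3276, 851, 1841 and 1414 TPM at 12 months, without overlap (log2 fold change 2.14, SE 0.44, adjusted p 0.00256). Klk6, a serine protease of oligodendrocytes, was at 8.58, 10.9, 6.32 and 6.35 TPM at 4 months and at 41.9, 228, 41.1, 50.8 and 27.8 TPM at 12 months, with replicate 2 far above the rest (2.77, SE 0.52, adjusted p 0.00117). The long non-coding RNA Neat1 went from at most 0.608 TPM to between 1.35 and 9.23 TPM (1.96, SE 0.35, adjusted p 0.00061).

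Pdcd1, which encodes the inhibitory receptor PD-1, went from between 0.228 and 0.635 TPM to between 1.35 and 4.92 TPM (1.94, SE 0.29, adjusted p 5.88e-05). Lag3, another inhibitory receptor, was at 3.50 to 7.61 TPM at 4 months and at 7.69 to 68.5 TPM at 12 months (2.07, SE 0.48, adjusted p 0.00714). Cdkn2a, a cell cycle inhibitor used as a senescence marker, was at 0.858, 0.252, 0.168 and 0.45 TPM at 4 months and at 5.60, 2.60, 0.728, 1.59 and 1.28 TPM at 12 months, and replicate 3 overlapped with the young libraries (1.44, SE 0.41, adjusted p 0.0371). In Csf1r-Cre mice without 5xFAD its mean went from 0.071 to 0.728 TPM (log2 fold change 1.03, adjusted p 0.577 by limma). Its age effect was more positive by 0.42 with 5xFAD (adjusted p 0.631 by limma). Tgm1, a transglutaminase, rose by 2.67 (SE 0.36, adjusted p 1.16e-05). P2ry12, a purinergic receptor of resting microglia, was at 24.6 to 45.0 TPM at 4 months and at 45.9 to 66.1 TPM at 12 months without passing the test (0.85, SE 0.26, adjusted p 0.0553). Dcx, a marker of newborn neurons, was at 1.71 to 2.74 TPM and at 0.778 to 4.00 TPM (-0.28, SE 0.52, adjusted p 0.785). By limma, the age effect differed with 5xFAD for Gfap, Klk6, Neat1, Pdcd1 and Tgm1 (adjusted p 0.0425, 0.0377, 0.0177, 0.0177 and 0.00624). Lag3, P2ry12 and Dcx did not pass that test (adjusted p 0.119, 0.169 and 0.667 by limma).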
